A study of Mus musculus with 24 samples.

Results

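EpiSox2mL2 is a line of male mouse epiblast stem cells (EpiSCs) of GOF18 background that overexpresses wild-type Sox2 and was kept in conditioned EpiSC medium. It was set against male mouse embryonic stem (ES) cells, ESCm, to see which ES transcripts it reaches and which it does not. The members were the 4 arrays titled for these lines, 2 for EpiSox2mL2 and 2 for ESCm, of 24 Illumina MouseRef-8 v2 arrays in the series. EpiSCm, the male GOF18 EpiSCs without a labelled transgene, served as the parent line, and female OG2 ES cells (ESCf) and EpiSCs (EpiSCf) were used to choose transcript sets on other arrays. The labels call the 2 arrays of a group biological replicates and do not say whether EpiSox2mL2 is 1 clone, which promoter drives Sox2, or which medium ESCm, ESCf, EpiSCm and EpiSCf were kept in. All p-values measure the spread between 2 arrays a group, pooled over the 12 groups of the series.

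ES cells hold the naive state of pluripotency, found in the early blastocyst epiblast, and EpiSCs the primed state of the epiblast after implantation. Both states use Pou5f1 and Sox2, which bind DNA together. The naive state adds factors such as Klf2, Klf4, Esrrb, Tbx3 and Zfp42, of which Klf4 is induced by LIF through STAT3. Primed cells depend on FGF and Activin or Nodal signalling and express Fgf5, Otx2 and Pou3f1.

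ES transcripts were defined without the arrays compared: genes at least 4-fold higher in ESCf than EpiSCf at adjusted p under 0.05 and detected on both ESCf arrays. There were 426, 4.77% of the 8932 tested genes, of which 35 were detected on neither ESCm array and were counted apart, leaving 391. A transcript was called within 2-fold of ESCm where the 95% interval of its difference lay inside 2-fold, and at least 2-fold below or above where it was called at adjusted p under 0.05 with a difference of that size. Epiblast transcripts, 315 in number (3.53%), were chosen the same way in the opposite direction. Levels and differences below are log2 values of normalized intensity, and differences are EpiSox2mL2 minus ESCm unless another pair is named.

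The proximal promoters of 3 ES transcripts with different outcomes, picked as examples, differ in CpG density. They are the 250 bases before the RefSeq start, on GRCm38.p6, with every CG dinucleotide in capitals. Gstp2, a glutathione S-transferase gene that EpiSox2mL2 brought within 2-fold of ESCm, lies on the minus strand at chr19:4042222-4042471 and held 12 CpG. Klf4, a naive transcription factor far below ESCm, lies on the minus strand at chr4:55532476-55532725 and held 32. Slc38a4, an imprinted amino acid transporter gene detected on neither EpiSox2mL2 array, lies on the minus strand at chr15:97055957-97056206 and held 3.
Gstp2: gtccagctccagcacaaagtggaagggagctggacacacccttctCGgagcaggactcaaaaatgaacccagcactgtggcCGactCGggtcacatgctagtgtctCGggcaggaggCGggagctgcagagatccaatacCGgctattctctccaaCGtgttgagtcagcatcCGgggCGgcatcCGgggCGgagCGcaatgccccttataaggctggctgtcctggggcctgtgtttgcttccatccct
Klf4: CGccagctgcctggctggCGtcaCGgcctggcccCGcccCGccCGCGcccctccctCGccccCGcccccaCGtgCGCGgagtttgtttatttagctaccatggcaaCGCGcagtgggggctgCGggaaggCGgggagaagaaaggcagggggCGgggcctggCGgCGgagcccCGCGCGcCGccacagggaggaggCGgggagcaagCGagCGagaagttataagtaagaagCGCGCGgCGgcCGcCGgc
Slc38a4: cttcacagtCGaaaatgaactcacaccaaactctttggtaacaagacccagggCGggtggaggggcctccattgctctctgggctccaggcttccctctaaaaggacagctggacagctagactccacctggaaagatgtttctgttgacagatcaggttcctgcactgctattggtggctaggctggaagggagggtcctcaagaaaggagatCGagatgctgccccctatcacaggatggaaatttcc

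Promoters were in the RefSeq table for 7265 of the 8932 tested genes and for 296 of the 391 ES transcripts. The median number of CpG in the 250 bases was 16 over all tested genes, 9.5 over the ES transcripts and 15 over the epiblast transcripts. Among ES transcripts it was 10.5 for those within 2-fold of ESCm, 12 for those at least 2-fold below but detected on both EpiSox2mL2 arrays, and 6 for those below and detected on neither. Fewer than 5 CpG were found in 45.5% of the last class, in 28% of all ES transcripts and in 9.53% of all tested genes. These shares are descriptions of the windows, and a link between CpG number and outcome was not tested.

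The Zfp42 and Nanog windows are shown for the binding letters of the overexpressed factor and its partner. Capitals mark the octamer ATGCAAAT or its reverse complement ATTTGCAT in Zfp42, on the minus strand at chr8:43307010-43307259, and the Sox-type core CATTGT or ACAATG in Nanog, on the plus strand at chr6:122707239-122707488.
Zfp42: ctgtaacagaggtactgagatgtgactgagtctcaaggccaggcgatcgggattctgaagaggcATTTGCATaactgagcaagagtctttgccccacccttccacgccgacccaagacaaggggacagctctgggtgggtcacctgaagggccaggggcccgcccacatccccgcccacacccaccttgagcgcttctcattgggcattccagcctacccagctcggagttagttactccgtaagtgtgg
Nanog: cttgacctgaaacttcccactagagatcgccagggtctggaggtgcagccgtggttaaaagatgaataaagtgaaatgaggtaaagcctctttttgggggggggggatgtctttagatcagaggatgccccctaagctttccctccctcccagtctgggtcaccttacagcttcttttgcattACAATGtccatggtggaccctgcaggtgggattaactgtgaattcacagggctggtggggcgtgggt

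The octamer match in Zfp42 began 186 bases before the start, and the Sox-type match in Nanog 67 bases before it. Searched on both strands, the octamer was in 1.35% of all promoters and 3.04% of those of ES transcripts, and the Sox-type core in 5.66% and 5.07%. The motifs can share letters where they adjoin. A match is a description of the sequence.

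Median signal was 90.2 to 101 on the 8 arrays of the GOF18 family, to which both EpiSox2mL2 arrays belong, and 119 to 152 on the other 16, ESCm among them. The comparison therefore cannot be told apart from this difference between sets of arrays, and the parent line, on the same low-signal set, is given beside it. The replicates of EpiSox2mL2 correlated at 0.993 over genes and those of ESCm at 0.995. EpiSox2mL2 differed from ESCm in 6147 of 8932 tested genes (68.8%), 3653 higher (40.9%) and 2494 lower (27.9%). Scaling each array to its median in place of quantile normalization turned this split into 1984 higher and 3699 lower, with the median difference over all genes moving from 0.19 to -0.26, so small differences depend on the scaling. Of the 2395 genes with over 1 kept probe, 360 (15%) had probes called in opposite directions, and such probes are given beside the genes named.

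EpiSox2mL2 reached the ESCm level for a minority of the ES transcripts. Of 391, 87 (22.3%) were within 2-fold of ESCm, 231 (59.1%) were at least 2-fold below, 18 (4.6%) at least 2-fold above and 55 met none of these criteria. Of the 87, 3 were detected on neither EpiSox2mL2 array. The count depended on the scaling, with 47 of 363 within 2-fold after median scaling and 124 of 462 when that scaling was centred on the tested genes, a setting chosen after seeing the data. Over all tested genes 43.8% were within 2-fold, 16% at least 2-fold below and 19.6% at least 2-fold above. The median difference of the ES transcripts was -1.42, beside 0.19 over all genes. ESCf, the ES line on which the set was chosen, had 187 of the 391 within 2-fold of ESCm, 115 above and 4 below, where the shares over all tested genes were 82.1%, 3.88% and 1.72%.

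**Figure D1:**
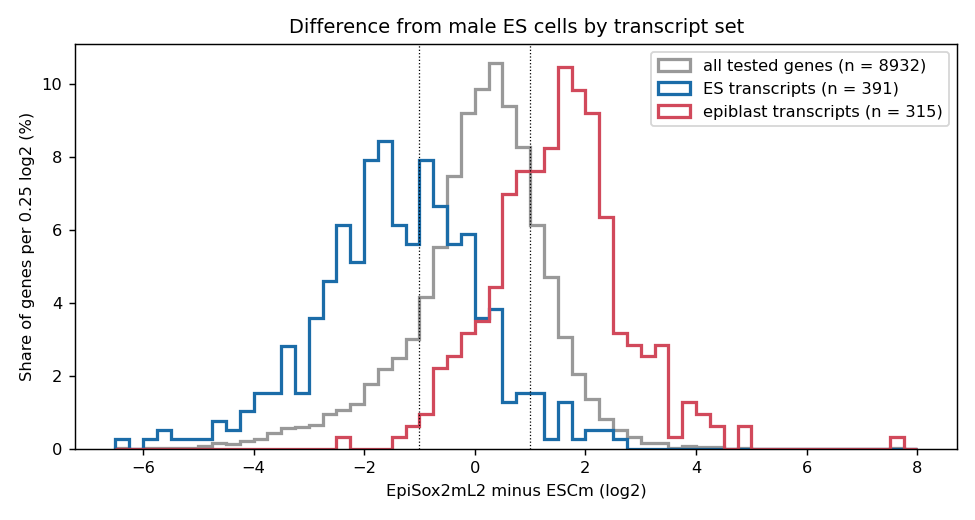
Histograms of the difference EpiSox2mL2 minus ESCm (log2, x axis) for all 8932 tested genes, the 391 ES transcripts and the 315 epiblast transcripts, as a percentage of each set per bin (y axis), with dotted lines at 2-fold. The ES transcripts lie mostly to the left, with a median of -1.42, and the epiblast transcripts to the right, with a median of 1.55.

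The parent line lay farther from ESCm on the same set. EpiSCm had 53 of the 391 within 2-fold of ESCm, 292 at least 2-fold below and 4 above, with a median difference of -1.86, where the shares over all genes were 42.4% within, 16.6% below and 19.5% above. These counts share the ESCm arrays with those of EpiSox2mL2 and are set side by side. Compared directly, EpiSox2mL2 was above EpiSCm for 190 of all 426 ES transcripts (44.6%) and below it for 11 (2.58%), where 12.9% and 11.5% of all tested genes were called higher and lower. The median of that difference was 0.42 over the ES transcripts and -0.01 over all genes. EpiSCm detected 222 of the 391 on both arrays and 137 on neither, against 282 and 82 in EpiSox2mL2.

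**Figure D2:**
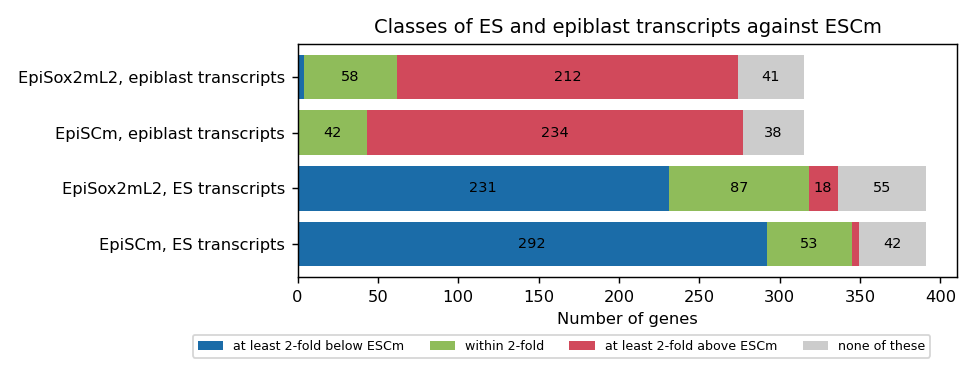
Stacked bars give the number of ES transcripts (391) and epiblast transcripts (315) in each class against ESCm, for the parent line EpiSCm and for EpiSox2mL2. The class at least 2-fold below ESCm holds 292 ES transcripts in EpiSCm and 231 in EpiSox2mL2, and that above ESCm holds 234 and 212 epiblast transcripts.

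The factors shared by both states gave mixed values. Pou5f1, the octamer-binding factor central to pluripotency, measured 12.88 and 13.11 on the ESCm arrays and 12.75 and 12.88 on the EpiSox2mL2 arrays, where the difference of -0.18 ± 0.13 (SE) was within 2-fold (adjusted p = 0.22). A second probe of Pou5f1 was 0.77 higher. Sox2, the transgene, measured 9.66 and 9.55 in ESCm and 9.08 and 9.17 in EpiSox2mL2, a difference of -0.48 ± 0.13 that was called but within 2-fold. EpiSox2mL2 was above its parent by 0.93 ± 0.13 (adjusted p = 4.5e-05) with this probe. The second Sox2 probe gave a far larger difference: 10.55 on both ESCm arrays, 5.47 and 5.54 in EpiSox2mL2, and a mean of 4.74 in EpiSCm. That probe spanned 4.64 to 5.77 over the 8 GOF18-family arrays and 7.68 to 10.55 over the other 16, so the level of Sox2 relative to ES cells depended on the probe.

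Nanog, a homeodomain factor that stabilizes the naive state, stayed at the parent level. It measured 12.64 and 12.58 in ESCm and 9.65 and 9.39 in EpiSox2mL2, a difference of -3.09 ± 0.14 (adjusted p = 2.0e-12). Against EpiSCm the difference was -0.10 (adjusted p = 0.65). Nanog ranged from 9.39 to 10.52 over the 8 GOF18-family arrays and from 9.39 to 12.76 over the other 16. The EpiSCf arrays measured 11.95 and 11.77, so a level this low was not shared by both EpiSC lines. Sall4, a zinc finger partner of Pou5f1, was 0.88 below ESCm by its brightest probe and 1.63 above by another. Utf1 and Zscan10, chromatin and zinc finger factors of pluripotent cells, were within 2-fold of ESCm, at differences of 0.43 and 0.58. Dppa4, a chromatin factor of pluripotent cells, was 1.21 ± 0.12 below ESCm but 3.70 above EpiSCm (adjusted p = 1.2e-13) by its brightest probe. Its other probes were 1.83 and 2.41 below ESCm, and the latter was detected on neither EpiSox2mL2 array. Tcf7l1, a repressor of naive genes, was 2.84-fold above ESCm by its brightest probe, while a second gave -0.18. Of the 15 tested members of the core pluripotency list, 3 were called higher and 9 lower, with a median of -0.48. This count and the list counts below stand beside 40.9% of all tested genes called higher and 27.9% called lower.

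**Figure D3:**
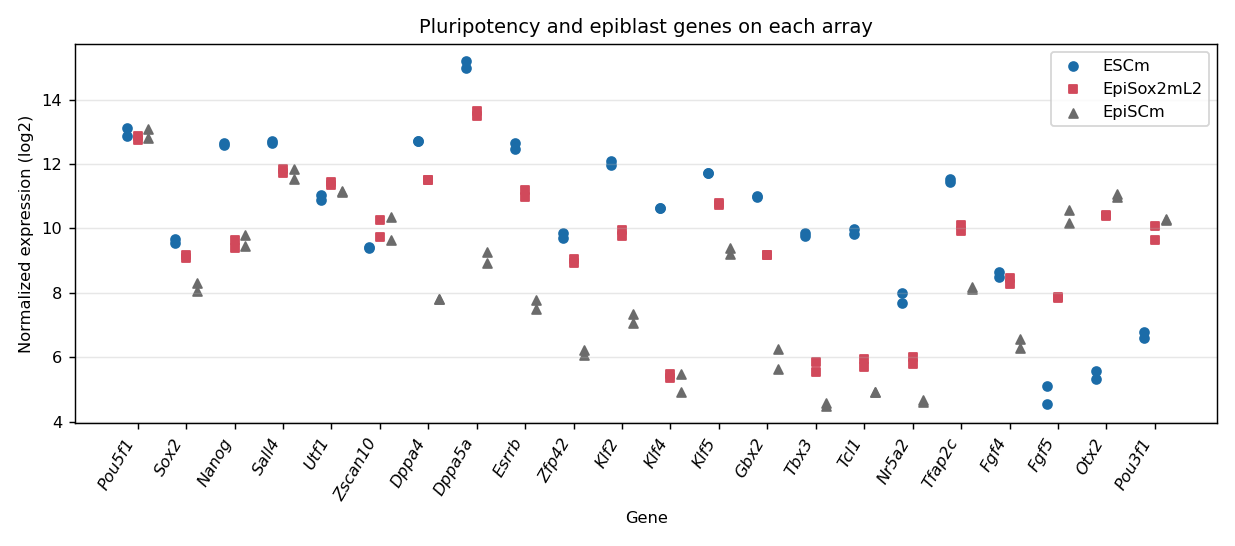
Normalized expression (log2, y axis) of 22 genes (x axis) on each of the 2 arrays of ESCm, EpiSox2mL2 and EpiSCm. Pou5f1 lies together in all 3 groups, Klf4 stays near 5 in EpiSox2mL2 and EpiSCm, and Dppa5a, Esrrb, Klf2 and Gbx2 lie between the parent and ESCm.

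The naive transcription factors ranged from those regained in large part to those little above the parent or at its level. Of 13 tested, 12 were called lower than in ESCm and 1 higher, none was within 2-fold, and the median was -1.49, where the parent's median was -3.63. Against the parent, 10 of the 13 were called higher, and Klf4, Etv4 and Nr0b1 were not called. Nr0b1, at -0.04 from the parent, was detected on neither EpiSox2mL2 array. Klf2, an effector that keeps naive cells from differentiating, measured 12.11 and 11.98 in ESCm and 9.96 and 9.77 in EpiSox2mL2, 4.54-fold lower, and was 2.65 above EpiSCm. Esrrb, an orphan nuclear receptor, measured 12.47 and 12.66 in ESCm and 11.19 and 10.97 in EpiSox2mL2, a difference of -1.49 ± 0.16 (adjusted p = 1.4e-07), and was 3.44 above EpiSCm. Gbx2, a homeobox gene downstream of STAT3, was 1.82 below ESCm and 3.21 above EpiSCm.

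Zfp42, the Rex1 marker of naive cells, came close to the ES level. It measured 9.86 and 9.70 in ESCm and 8.93 and 9.06 in EpiSox2mL2, 0.79 ± 0.18 lower (adjusted p = 0.001), with an interval that crossed 2-fold. It stood 2.85 above the parent. Klf5, whose role overlaps that of Klf2 and Klf4, was 0.96 below ESCm and 1.46 above EpiSCm. Nr5a2, a nuclear receptor, and Tfap2c, an AP-2 factor, were 1.94 and 1.48 below ESCm. Tfap2c was 1.85 above the parent, and Nr5a2, which the parent did not detect, at least 1.53-fold above it by its brightest probe, while its others were detected on neither EpiSox2mL2 array.

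Klf4, a Kruppel-like factor induced by LIF, stayed near the parent level by its brightest probe. It measured 10.63 and 10.62 in ESCm and 5.37 and 5.47 in EpiSox2mL2, 37-fold lower (adjusted p = 1.3e-13), and differed from EpiSCm by 0.22 (adjusted p = 0.45). Its other probes were 2.31 and 3.04 below ESCm, at 5.48 and 6.09 in EpiSox2mL2 and 4.66 and 4.99 in EpiSCm. Tbx3, a T-box factor of naive cells, measured 9.86 and 9.77 in ESCm and 5.85 and 5.54 in EpiSox2mL2, 17.3-fold lower. It was not detected in EpiSCm, which puts EpiSox2mL2 at least 1.32-fold above its parent. One further Tbx3 probe, detected on 1 of the ESCm arrays, gave -0.04 and another -3.85. Tcl1, an Akt coactivator, was 4.09 below ESCm and at least 1.44-fold above EpiSCm, which did not detect it, while a second probe was detected in ESCm only. For all 3 genes every EpiSox2mL2 array lay below every ESCm array, as it did in one direction or the other for 85.8% of all tested genes.

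Markers of the ES cell surface and cytoplasm also varied. Of 13 tested, 9 were called lower than in ESCm, 2 higher and 3 were within 2-fold, with a median of -1.74 and a parent median of -2.15. Dppa5a, an RNA-binding protein abundant in ES cells, measured 15.19 and 14.99 in ESCm and 13.48 and 13.63 in EpiSox2mL2, 1.53 lower, and was 4.45 above EpiSCm. Fgf4, a Pou5f1 and Sox2 target that encodes the growth factor of the inner cell mass, measured 8.66 and 8.49 in ESCm and 8.27 and 8.45 in EpiSox2mL2, within 2-fold at -0.22 ± 0.25, and was 1.93 above EpiSCm. Pecam1, an adhesion molecule of the inner cell mass, was within 2-fold at 0.26 by its brightest probe, while another measured 7.13 and 7.14 in ESCm and 5.60 and 5.66 in EpiSox2mL2. Icam1, also an adhesion molecule, was called higher but within 2-fold at 0.53, a sign that median scaling turned. Jam2, a junctional adhesion molecule, measured 10.40 and 10.30 in ESCm and was detected on neither EpiSox2mL2 array, at least 34.7-fold lower.

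Genes of the germ line and early embryo were regained unevenly. Of 17 tested, 14 were called lower than in ESCm and 2 higher, 3 were within 2-fold, and the median was -1.65, beside -2.11 in the parent. Against the parent, 11 were called higher. Rbmxl2, an RNA-binding protein gene of the testis, was not detected in EpiSCm and was at least 18.1-fold above it, and lay 1.65 below ESCm, at 9.44 and 9.49 against 11.10 and 11.14. Ooep, of the oocyte subcortical complex, measured 13.04 and 12.97 in ESCm and 9.54 and 9.64 in EpiSox2mL2, 10.7-fold lower, and was 3.56 above EpiSCm. Dppa3, which protects methylation in the zygote, was 1.79 below ESCm and 2.23 above EpiSCm. Zscan4c, a marker of a rare 2-cell-like state, was 2.60 below ESCm and at least 1.3-fold above EpiSCm, where it was not detected.

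The reproductive homeobox cluster on the X chromosome showed both outcomes. Rhox5 measured 11.99 and 11.78 in ESCm and 8.35 and 8.63 in EpiSox2mL2, 3.39 lower, although it stood 3.03 above EpiSCm. Rhox9 measured 7.20 and 7.10 in ESCm and 6.37 and 6.74 in EpiSox2mL2, within 2-fold at -0.59 ± 0.19, and was at least 2.4-fold above EpiSCm, where it was not detected. Rhox6 was detected in ESCm and on neither EpiSox2mL2 array, at least 1.56-fold lower. Rhox1 was detected in none of these lines.

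The ES transcripts that were within 2-fold of ESCm held more X-linked genes than the set as a whole. They numbered 17 of 87 (19.5%), beside 36 of 391 (9.21%) in the ES set, 13 of 231 (5.63%) among those at least 2-fold below and 3.48% of all tested genes. The set was chosen on female lines, whereas ESCm and EpiSox2mL2 are labelled male. Xlr4a, an X-linked gene of the lymphocyte-regulated family, measured 7.53 and 7.32 in ESCm and 7.19 and 7.52 in EpiSox2mL2, with overlapping arrays. Its difference was -0.07 ± 0.13, and it was 0.66 above EpiSCm. Over the 16 arrays outside the GOF18 family, ESCm and ESCf among them, Xlr4a reached 12.39. ESCm was therefore far below the highest of those arrays, so the closeness is to the level of ESCm alone. Taf7l, an X-linked general transcription factor gene of germ cells, was within 2-fold at -0.48 and was not detected in EpiSCm.

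The reached transcripts with the largest ES to EpiSC differences had varied roles. Gstp2 measured 8.14 and 8.40 in ESCm and 8.77 and 8.98 in EpiSox2mL2, and was 3.52 above EpiSCm. Against ESCf it was 1.59 lower, so its standing depended on the ES line. Acta2, smooth muscle actin, was within 2-fold at -0.23 ± 0.15 and 2.46 above EpiSCm, while its other probes gave differences of -1.63 to -0.15. Nupr1, a stress-induced nuclear protein, measured 8.16 and 8.34 in ESCm and 7.98 and 8.39 in EpiSox2mL2. Apoc1, an apolipoprotein, was within 2-fold at 0.07, and Anxa2, a membrane-binding annexin, at 0.37. Those last 3 were above the parent by 1.84, 1.30 and 1.03.

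The 18 ES transcripts above ESCm included Lefty2, a secreted Nodal inhibitor. It measured 10.76 and 10.73 in ESCm and 11.76 and 11.88 in EpiSox2mL2, 1.07 ± 0.14 higher (adjusted p = 1.2e-06), and was 2.29 above EpiSCm. Cldn4, a tight junction claudin, was 1.10 above ESCm and 1.61 above EpiSCm. Anxa3 and Hebp1, a phospholipid-binding annexin and a heme-binding protein, were 2.01 and 2.49 above ESCm. Fmr1nb, an X-linked gene of the testis, measured 6.30 and 6.19 in ESCm and 7.60 and 7.92 in EpiSox2mL2, and was not detected in EpiSCm, while a second probe was detected in neither ESCm nor EpiSox2mL2. Against ESCf it was 3.04 lower. Signs also turned against ESCf for Abcb1b, Ldoc1 and Rusc2, which encode a multidrug transporter, an X-linked leucine zipper protein and a trafficking adaptor.

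Among the 231 ES transcripts at least 2-fold below ESCm, 143 were still detected on both EpiSox2mL2 arrays, 18 on 1 and 70 on neither. Their median difference was -2.09. Klhl13, an X-linked adaptor of a ubiquitin ligase, measured 11.16 and 11.14 in ESCm and was detected on neither array of EpiSox2mL2 or EpiSCm, at least 60.5-fold lower. Slc38a4 measured 9.48 and 9.52 in ESCm and was detected in neither line, at least 19.2-fold lower. The zinc finger gene Zfp987 was at least 13.9-fold lower and its second probe was also undetected in EpiSox2mL2. Pim1, a kinase induced by STAT3, and Klf8, an X-linked Kruppel-like factor, were at least 4.45-fold and 2.88-fold lower. Mylpf and Laptm5, a myosin light chain and a lysosomal membrane protein, were detected in both lines, 3.32 and 2.24 below ESCm, and 1.99 and 3.12 above EpiSCm.

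Genes of the DNA methylation machinery were called in both directions. Dnmt3l, a catalytically inactive cofactor of de novo methylation, measured 13.48 and 13.36 in ESCm and 10.25 and 10.45 in EpiSox2mL2, 8.41-fold lower, and was 3.39 above EpiSCm. Dnmt3b, the de novo enzyme of the epiblast, was 1.07 above ESCm by its brightest probe, at the parent level. Another Dnmt3b probe gave -0.25, with means of 7.98 in EpiSox2mL2 and 9.02 in EpiSCm, below the parent. Dnmt1, the maintenance enzyme, and Uhrf1, which recruits it, were 0.65 and 1.01 lower than in ESCm, with Dnmt1 within 2-fold. Dnmt1 ranged from 8.95 to 9.84 over the 8 GOF18-family arrays, wholly below the other 16, at 9.87 to 10.84. Of 6 tested members of that list, 3 were called lower and 2 higher, where 27.9% and 40.9% of all tested genes were.

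Counts for signalling pathways stand beside 40.9% of all tested genes called higher and 27.9% called lower. In the LIF and STAT3 list, 7 of 14 were called lower and 5 higher, with a median of -0.64. The transducer Il6st was 1.71 lower, and Socs3, a feedback inhibitor, 1.28 lower. Stat3 was 1.56 lower by its brightest probe while its others gave 0.26 and 0.88. Jak1 was detected in ESCm and on neither EpiSox2mL2 array, at least 3.2-fold lower. Cebpb, a transcription factor, was 2.47 higher. Pim2, a kinase, was at least 17.1-fold higher by its brightest probe, which ESCm did not detect, and 1.65 and 2.46 higher by its others.

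BMP components were mostly lower. Of 11 tested, 8 were called lower and 2 higher, with a median of -1.21 and -1.22 in the parent. Id1, a helix-loop-helix inhibitor induced by BMP in ES cells, measured 8.48 and 8.36 in ESCm and 5.71 and 5.60 in EpiSox2mL2, 2.76 lower. Id3 was detected on neither EpiSox2mL2 array, at least 3.7-fold lower. Bmp4, the ligand, measured 8.67 and 8.77 in ESCm and 6.05 and 6.99 in EpiSox2mL2, 2.20 ± 0.24 lower, and was 1.01 above EpiSCm. The receptor Bmpr1a gave opposite calls by its 2 probes, -1.42 and 0.63.

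Nodal and Activin components were mostly higher. Of 13 tested, 9 were called higher and 3 lower, with a median of 0.99, or 0.40 after median scaling. Lefty1, a Nodal inhibitor and target, measured 10.87 and 10.92 in ESCm and 13.41 and 13.24 in EpiSox2mL2, 2.44 higher, at the parent level. Nodal itself measured 8.92 and 8.60 in ESCm and 9.89 and 10.04 in EpiSox2mL2, near the parent. Furin, a protease that processes it, was 2.13 higher. Tdgf1, the Nodal coreceptor Cripto, was 3.26 lower, and its values over the 8 GOF18-family arrays, 6.48 to 7.27, lay below those of the other 16, 9.11 to 11.25. Inhba and Inhbb, which encode activin subunits, were also lower.

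In the FGF and ERK list 9 of 15 were called higher and 3 lower, with a median of 0.45 that became -0.03 after median scaling. Fgfr1, the receptor, was at least 2.12-fold higher by its brightest probe, which ESCm did not detect, and 1.54 higher by another, which 1 ESCm array detected. The immediate early genes Fos and Egr1 were 1.92 and 1.89 lower than in ESCm, and Egr1 turned to 0.12 against ESCf. Dusp6, an ERK phosphatase, was 0.30 higher by its brightest probe, -0.38 after median scaling, and had other probes at -3.19 and 0.95. In the Wnt list 6 of 14 were higher and 5 lower, near the shares over all tested genes, with a median of 0.35 that became -0.26 after median scaling. Wnt8a, a ligand of the primitive streak, was at least 6.4-fold higher than in ESCm and 1.34 below the parent.

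Most epiblast transcripts were higher than in ESCm. Of 315, 212 (67.3%) were at least 2-fold above ESCm, 58 within 2-fold and 4 below, with a median of 1.55, and 13 of the 58 were detected in neither line. The parent had 234 above, 42 within and 1 below, and a median of 1.69. Compared directly, EpiSox2mL2 was below EpiSCm for 82 (26%) and above it for 26 (8.25%). In the primed epiblast list 12 of 14 were called higher than in ESCm and 1 lower, with a median of 2.81. Otx2, a homeobox factor of the primed epiblast, measured 5.33 and 5.58 in ESCm and 10.40 and 10.43 in EpiSox2mL2, 31.2-fold higher (adjusted p = 8.7e-14), and was 0.61 below EpiSCm. Pou3f1, a POU factor of the same state, measured 6.59 and 6.77 in ESCm and 10.09 and 9.64 in EpiSox2mL2, 3.18 higher. Zic2, a zinc finger factor, was 2.85 higher and differed from EpiSCm by -0.02 (adjusted p = 0.96).

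The FGF ligands of the epiblast were partly reduced from the parent level. Fgf5, its defining ligand, was detected on neither ESCm array and measured 7.85 and 7.86 in EpiSox2mL2, at least 5.46-fold higher, and was 2.52 below EpiSCm (adjusted p = 2.8e-08). Fgf8, a ligand of the streak, measured 6.27 and 6.13, at least 1.73-fold above ESCm, and was 3.56 below EpiSCm. Fgf15 was 1.13 above ESCm, -0.54 from the parent, and turned to -0.12 against ESCf. Car4 and Car14, carbonic anhydrases, were 1.49 and 4.12 above ESCm, and both were called lower than in EpiSCm. Cxcl12, a chemokine, was within 2-fold of ESCm at -0.22, with overlapping arrays, and 1.76 below EpiSCm.

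Primitive streak and mesendoderm genes mark cells beginning to differentiate. Of 15 tested, 4 were called higher than in ESCm and 4 lower, with a median of 0.02 beside 0.94 in the parent. Of the 8 within 2-fold, 5 were detected in neither EpiSox2mL2 nor ESCm. Wnt8a, Fgf8 and Gata6 were among those detected on both EpiSox2mL2 arrays. Gsc, an organizer homeobox gene, was detected on neither EpiSox2mL2 array, at least 8.92-fold below EpiSCm. Lhx1, Sox17, Foxa2 and Mixl1, which specify mesoderm and endoderm, were detected on no array of ESCm or EpiSox2mL2. Lhx1, Sox17 and Mixl1 were at least 3.48-fold, 1.29-fold and 1.27-fold below EpiSCm, and Foxa2 was detected on 1 EpiSCm array. The summed linear level of the list was 797 to 813 in EpiSox2mL2, 970 to 982 in ESCm and 2539 to 2801 in EpiSCm. In the neural and ectoderm list 5 of 8 were within 2-fold of ESCm, but 4 of these were detected in neither line. Nes, an intermediate filament of neural progenitors, was 1.75 higher.

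**Figure D4:**
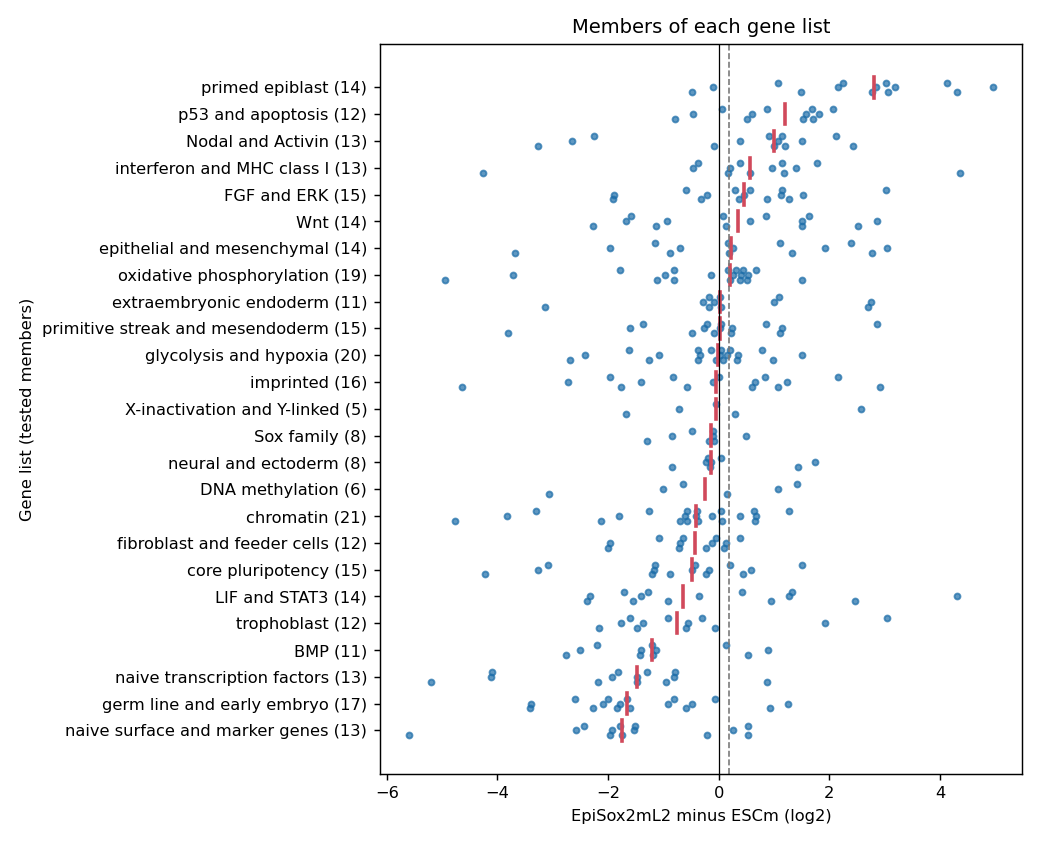
Each point is a tested member of one of the 25 gene lists (y axis, tested members in parentheses), placed at its difference EpiSox2mL2 minus ESCm (log2, x axis). Red bars are list medians, the solid line is 0 and the dashed line the median of all genes, 0.19. The primed epiblast list has the highest median, 2.81, and the naive surface and marker genes the lowest, -1.74.

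Markers of other cell types that a culture could hold were counted too. Of 12 tested fibroblast and feeder markers, 5 were called lower than in ESCm, none was called higher under the main settings, and the median was -0.44. Their summed level was 4128 to 4155 in ESCm, 3096 to 3337 in EpiSox2mL2 and 1767 to 1913 in EpiSCm, and 2 of the 12 were detected on neither ESCm array. Acta2 and Vim were the brightest members in ESCm, at 11.24 and 9.97 log2, and the sum rests mostly on them. Col3a1 and Dcn, a collagen and a proteoglycan of fibroblasts, were detected in ESCm and on neither EpiSox2mL2 array. Their part in the comparison was not tested. In the extraembryonic endoderm list 4 of 11 were higher and 1 lower. Col4a1 and Col4a2, basement membrane collagens, were 2.75 and 2.70 higher, while the defining factors Sox17 and Foxa2 were detected in neither line and Gata6 was at the same level, with a difference of 0.04. In the trophoblast list 8 of 12 were lower and 2 higher, the latter being the simple epithelial keratins Krt8, 3.05 higher, and Krt18, 1.92 higher.

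Of the 12 largest falls 6 were ES transcripts, and of the 12 largest rises 8 were epiblast transcripts. Most of the 12 falls also set the GOF18-family arrays apart from the others, as given below, and the ES transcripts overlap with those. Vstm2l, an epiblast transcript that encodes an immunoglobulin-domain protein, was detected on neither ESCm array and measured 12.55 and 12.37 in EpiSox2mL2, at least 133-fold higher, and was 3.84 above EpiSCm. Slc39a8, a zinc transporter, and C1ql2, a complement-like secreted protein, were at least 15.2-fold and 11.5-fold higher. For Slc39a8 the 8 GOF18-family arrays, at 8.88 to 9.40, lay wholly above the other 16, at 4.33 to 8.04. Tex13b, an X-linked testis gene, was at least 7.79-fold higher and was not detected in EpiSCm, while its second probe was detected in neither line. Gbp2, an interferon-induced guanylate-binding protein, was at least 12-fold higher by a probe whose partner was detected in neither line. Values of Gbp2 over the 8 GOF18-family arrays, 8.88 to 11.14, also lay above those of the other 16, 4.48 to 8.77.

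Of the 12 largest falls, those of Cacybp, Stmn1, Hsp90aa1, Pcna, Gng5, Atp5a1 and St13 were as large in the parent and set the 8 GOF18-family arrays apart from the other 16. Hsp90aa1, a heat shock chaperone, measured 12.21 and 12.25 in ESCm and 6.47 and 6.61 in EpiSox2mL2. It ranged from 6.41 to 7.30 over the 8 arrays and from 8.70 to 12.25 over the other 16, EpiSCf included. Pcna, the replication clamp, ranged from 4.88 to 6.45 and from 8.66 to 10.69, and Stmn1, a microtubule regulator, from 5.49 to 6.56 and from 9.95 to 12.33. Over all genes the 8 arrays lay entirely below the other 16 for 805 (9.01%). The share was 83.6% of the 61 genes called at least 16-fold lower and 20 of the 231 ES transcripts at least 2-fold below ESCm. In the other direction, the 8 arrays lay entirely above the other 16 for 606 genes (6.78%). That share was 21.1% of the genes called at least 2-fold higher, and these included Slc39a8, Gbp2, Wnt8a, Fgfr1 and Col4a1. Without genes on which the 8 arrays lay beyond the other 16 on either side, 86 of 369 ES transcripts were within 2-fold and 211 at least 2-fold below. ES transcripts were chosen as low in EpiSCf and high in ESCf, both among the 16, so few could be such genes. For that reason, the 20 of 231 and the counts after removal do not measure how far the array difference affected the set.

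**Figure D5:**
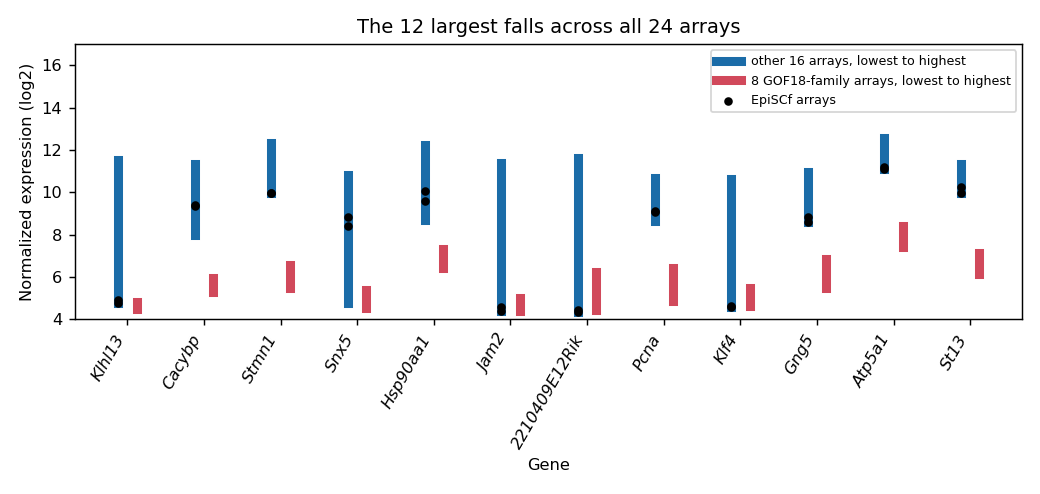
For the 12 largest falls (x axis), bars span the lowest to the highest normalized expression (log2, y axis) over the 8 GOF18-family arrays and over the other 16, and black points are the 2 EpiSCf arrays. For 7 of the 12 the bars are apart, as for Pcna and Stmn1, while for Klhl13, Jam2 and Klf4 the EpiSCf arrays lie with the low bar.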

How the data were processed

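The authors deposited non-normalized intensity values and detection p-values for 25697 probes on 24 arrays and processed log2 values. Lumi, RMA and BeadStudio 3.2 are listed in the submitters' processing notes, without saying which values each made. Intensities were background-corrected with limma 3.58.1 in R 4.3.3 (normexp from detection p, offset 16), quantile normalized and log2 transformed. Probes detected (p under 0.01) on both arrays of some group were kept, and a gene took its brightest kept probe, for 8932 genes. Gene symbols came from the platform table, and 23962 named probes matched RefSeq of GRCm38.p6. A limma model with 1 mean for each of the 12 groups was fitted to the 24 arrays (12 residual and 6.13 prior degrees of freedom), with Benjamini-Hochberg adjustment over all tested genes and calls at adjusted p under 0.05. Where the dimmer group detected a gene on neither array, the fold is a lower bound against the detection limit. The number of arrays limits the precision. Each amplification took 300 ng of RNA per the labels.

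The members, lists and tests were chosen with earlier results of these data known. Named genes were the pluripotency genes Sox2, Pou5f1, Nanog, Zfp42, Esrrb, Klf4 and Fgf5, the 12 largest falls and rises, the strongest members of each class of each set and of each list, and members of 8 gene families. Rbmxl2, Gbx2, Nr5a2, Tfap2c, Utf1, Zscan10, Sall4, Gsc, Il6st, Socs3, Stat3, Nodal and Furin, and the further members of lists that the text or a plot names, were chosen after their values were seen. Same-numbered arrays of the groups compared did not deviate together. The tests were run on simulated data first. Bead-level data were not used here.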

Additional observations from a re-analysis of the deposited data

How the results depend on the processing

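The count of called genes, 6147 of 8932, stayed between 5457 and 6551 over all alternatives but the removal of genes that separate the array sets, where it was 4776 of 7521. Leaving out 1 array at a time gave 5457 to 5577 called genes, 72 to 79 ES transcripts within 2-fold, 232 to 237 below, 212 to 213 epiblast transcripts above, 14 to 16 lists with a negative median and 169 to 175 called named genes. A fit with replicate number as a block called 6128, and the numbers do not pair the arrays (r = -0.0094 between same-numbered deviations). The counts of the sets follow how the sets and classes are cut. ES transcripts within 2-fold numbered 48 of 167 without background correction, 47 of 363 with median scaling, 362 of 1055 and 29 of 172 with sets chosen at 2-fold and 8-fold, and 27 and 214 with classes at 1.5-fold and 4-fold. Those below numbered 148 of 244 with an offset of 50, 100 without background correction, 351 of 589 with the authors' log2 values, 466 and 121 with sets at 2-fold and 8-fold, and 121 with classes at 4-fold. Epiblast transcripts above numbered 110 of 171 with an offset of 50, 58 of 91 without background correction, 431 of 619 with the authors' values, 667 of 1323 and 72 of 90 with sets at 2-fold and 8-fold, and 98 with classes at 4-fold. Of the differences of named genes, 3566 values kept sign and side of the threshold, 98 lost the call, 104 gained it and 30 changed sign. With median scaling the signs turned for Anxa2 (-0.26), B2m (-0.037), Cdkn1c (-0.015), Dusp6 (-0.38), Icam1 (-0.078), Klf13 (-0.23), Lpar4 (-0.15), Ndufb8 (-0.36), Smad2 (-0.22), Smad5 (-0.072), Spred1 (-0.032) and Uqcrc1 (-0.25). With that scaling centred on the tested genes, an alternative chosen after seeing the data, they turned for Ascl2 (0.020), Cd24a (0.18), Csn3 (0.014) and Fabp5 (0.15), and with the mean of kept probes for Dusp6 (-0.65) and Klf6 (-0.31). With ESCf in place of ESCm they turned for Abcb1b (-0.23), Anxa2 (-0.19), Egr1 (0.12), Eif2s3y (3.44), Fgf13 (-0.24), Fgf15 (-0.12), Fmr1nb (-3.04), Gstp2 (-1.59), Icam1 (-0.14), Ldoc1 (-0.36), Rusc2 (-0.50) and Slain1 (0.12). Removing genes that separate the 8 GOF18-family arrays from the other 16 was also chosen after seeing the data. The cause of these changes was not tested, beyond the sizes of the sets given.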

Other observations

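Counts for gene lists outside the pluripotency programmes are read against the 40.9% of all tested genes called higher in EpiSox2mL2 and the 27.9% called lower. In the p53 and apoptosis list 9 of 12 tested members were called higher and 2 lower, and the list's median difference stayed above 0 after median scaling, at 0.65. Cdkn1a, the cell cycle inhibitor p21, measured 8.94 and 8.71 in ESCm and 10.48 and 10.56 in EpiSox2mL2, 1.70 higher, and was 0.75 above EpiSCm. These values are from its brightest probe. Another Cdkn1a probe was not called, at 0.15, and a further one was called higher. Mdm2, the ubiquitin ligase for p53, was 1.68 higher by its brightest probe, while a dim one was detected in ESCm and on neither EpiSox2mL2 array. Ccng1 and Phlda3, p53 targets, were 1.81 and 2.06 higher by their brightest probes. Their further probes were also called higher, that of Phlda3 by 0.83. By the brightest probes both genes set the 8 GOF18-family arrays wholly above the other 16. The lowest of the 8 was 11.40 for Ccng1 and 9.96 for Phlda3, and the highest of the 16 was 10.91 and 9.19. In the interferon and MHC class I list 7 of 13 were higher and 2 lower, called about as often as all genes (68.8%), with a median of 0.56. Irf1, an interferon-regulated factor, was 1.78 higher, while Ifitm1, an interferon-induced membrane protein, was 4.26 lower.

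Of imprinted genes 7 of 16 were higher and 6 lower, near the shares over all genes. Nnat, a membrane proteolipid, and Grb10, a growth inhibitor, were 2.91 and 2.15 higher, and Mest and Peg10 2.72 and 1.76 lower. Mest ranged from 7.32 to 8.36 over the 8 GOF18-family arrays and from 9.71 to 11.35 over the other 16. In the chromatin list 12 of 21 were lower and 4 higher, with a median of -0.41. Eed and Rnf2, of the Polycomb complexes, were 4.76 lower and at least 9.78-fold lower, and both also separated the 8 arrays from the other 16. Jarid2, a Polycomb cofactor, was at least 5.64-fold lower, while Kdm1a, a histone demethylase, was within 2-fold at 0.03.

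In the glycolysis and hypoxia list 12 of 20 were within 2-fold, beside 43.8% of all tested genes, among them Ldha, Gapdh and Pkm, which encode enzymes of lactate production and glycolysis. The hypoxia-induced genes Ndrg1 and Egln3 were 2.68 and 2.42 lower than in ESCm and 1.56 and 1.15 below EpiSCm. In the oxidative phosphorylation list 8 of 19 were higher and 7 lower, also near those shares, and its median of 0.20 became -0.51 after median scaling. Among epithelial and mesenchymal genes 6 of 14 were higher and 5 lower, likewise near them. Cldn6 and Cldn3, claudins, were 2.77 higher and at least 4.46-fold higher, whereas Cdh1, E-cadherin, was 1.96 lower, at 8.95 to 9.60 over the 8 GOF18-family arrays and 10.47 to 11.53 over the other 16.

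Of the 13 genes in the Sox family list, which does not hold every Sox gene, 8 were tested and none was called higher. Sox15 was 1.31 lower than in ESCm and Sox21 0.85 lower. Y-linked Eif2s3y was detected on every array of both lines, 1.68 lower in EpiSox2mL2, while Y-linked Usp9y was detected in EpiSox2mL2 alone of ESCm, EpiSCm and EpiSox2mL2, at least 3.04-fold above ESCm. Xist, the RNA that silences the X chromosome, was detected in none of the 3.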
